A study of Homo sapiens with 6 samples.

Results

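The genes described here encode the ELL elongation factors and the other subunits of the super elongation complex: ELL, ELL2, ELL3, AFF1, AFF4, CDK9, CCNT1, CCNT2, MLLT1 and MLLT3. They were chosen by symbol, and all 10 were found among the 20667 gene symbols listed for each library. U2932 is a human lymphoma cell line of the activated B-cell-like type of diffuse large B-cell lymphoma. Its cells were transduced with lentivirus carrying a pLKO.1 vector with puromycin resistance and tGFP, which expressed either an shRNA against ROCK2 (ROCK2 KD, 3 libraries) or a scrambled shRNA (Scr, 3 libraries), and stable lines were obtained by sorting and puromycin. Total RNA was sequenced from 3 libraries per group, numbered 1 to 3 in both. The groups thus share the parental line, the vector and the selection, and the knockdown rests on 1 shRNA sequence against ROCK2. The labels do not say whether the replicates came from separate infections or cultures, so that p values measure the spread between these libraries, which may be technical.

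RNA polymerase II commonly pauses shortly after it starts transcription. Release from the pause needs P-TEFb, the kinase CDK9 bound to cyclin T1 or T2 (CCNT1 or CCNT2), which phosphorylates the polymerase and the factors that hold it. In the super elongation complex, the scaffold proteins AFF1 and AFF4 join P-TEFb to an ELL protein, which raises the rate of elongation, and to MLLT1 (ENL) or MLLT3 (AF9), which bind acetylated histones. Several of these genes are known as fusion partners of KMT2A in acute leukaemia. ELL2 has a further role in plasma cells, where it favours the secreted form of the immunoglobulin heavy chain mRNA.

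In stimulated Ramos cells, the study reported that ROCK2 knockdown lowered IRF4 binding at the ELL2 promoter and the rise of ELL2 mRNA. The study also used a stretch of the ELL2 locus, described as its promoter, to precipitate IRF4 from extracts of transfected HEK cells. This oligonucleotide is shown because it marks the stretch of ELL2 on which the study tested IRF4 binding in extracts. Its sense strand follows, 5′ to 3′, with capitals marking a match on the opposite strand to the motif GGAANNGAA, a short form of the composite element bound by ETS and IRF factors.
ELL2 oligonucleotide: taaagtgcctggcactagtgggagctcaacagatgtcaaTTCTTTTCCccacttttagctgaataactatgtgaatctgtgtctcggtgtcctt
The 94 bases had 1 exact match in GRCh37, at chr5:95295776-95295869 with the sense strand on the plus strand. ELL2 itself spans positions 95220802 to 95297555 of chromosome 5 and is read from the minus strand, so the match falls between 1686 and 1779 bases downstream of the annotated start of the gene. It holds 0 exonic bases of ELL2 and lies in the intron that follows the exon from 95297279 to 95297555. The motif matched as GGAAAAGAA, at bases 40 to 48 counted from the 5′ end of the sense strand, and is read on the same strand as the gene.

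Promoter windows from 250 bases before to 50 bases after the start were taken from RefSeq (GRCh38.p14), where 11 windows matched 9 of the 10 genes. ELL2 was not matched. The 2 genes with the lowest fitted differences between ROCK2 KD and Scr, ELL and MLLT1, are shown, both on the minus strand of chromosome 19, at chr19:18522021-18522320 and chr19:6279926-6280225. Capitals mark CACGTG, the E-box bound by MYC with MAX, which was searched on both strands together with GGAANNGAA and a short form of the interferon-stimulated response element.
ELL promoter: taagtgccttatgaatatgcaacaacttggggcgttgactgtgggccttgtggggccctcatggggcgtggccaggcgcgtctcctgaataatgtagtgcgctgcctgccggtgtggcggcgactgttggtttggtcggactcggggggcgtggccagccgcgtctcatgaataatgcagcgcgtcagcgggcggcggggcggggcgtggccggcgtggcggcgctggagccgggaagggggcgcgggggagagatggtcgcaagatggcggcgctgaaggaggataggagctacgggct
MLLT1 promoter: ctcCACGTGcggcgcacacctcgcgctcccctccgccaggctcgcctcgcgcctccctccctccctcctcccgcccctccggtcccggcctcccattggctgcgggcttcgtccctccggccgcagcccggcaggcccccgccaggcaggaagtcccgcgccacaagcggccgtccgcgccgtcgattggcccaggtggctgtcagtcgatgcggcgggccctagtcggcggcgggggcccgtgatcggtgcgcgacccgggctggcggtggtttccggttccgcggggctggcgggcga
CACGTG was present in 3 of the 11 windows, those of AFF4, MLLT1 and 1 of the windows of CCNT1, against 7.26% of the 35116 windows of all genes. G and C made up 74.7%, 77.7% and 59% of these windows of AFF4, MLLT1 and CCNT1, against a median of 58.7% over all windows. The part of base composition in the count was not tested. The short response element was present in the window of CCNT2 (3.57% of all windows), and GGAANNGAA in 0 of the 11 (7.79% of all windows). The ELL window held none of the 3 motifs. Such matches describe the letters of the windows and not binding.

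The values are FPKM, which relate the fragments of a gene to the length of its transcript and to all mapped fragments of the library. FPKM summed to between 208289 and 480612 per library, lowest in both libraries of replicate 1, and the number of reads behind a value is unknown. The steps between the lowest values put the depth of each library at 71.2% to 100% of that of the Scr library of replicate 3, an approximate value since 60.5% to 64.5% of the low genes in the other libraries lay within 0.1 (log2) of ratios of 1 to 3 reads. Values below are FPKM divided by a scaling factor of the library (0.786 to 1.16), called scaled FPKM. The B-cell markers MS4A1, CD79A, CD79B, PAX5 and CD22 each had an FPKM of at least 1 in every library. Of the T-cell list, CD2 was listed at 0 throughout, and the sum of its 4 genes was 1.81 to 4.85 in ROCK2 KD and up to 6.03 in Scr, mostly CD247. The 4 myeloid markers summed to between 0.295 and 0.648 in ROCK2 KD and between 0.369 and 0.642 in Scr, and the 3 erythroid markers to 0.390 at most. Among the epithelial markers CDH1 was listed at 0 throughout and EPCAM at 2.59 to 5.00.

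ROCK2, the gene targeted by the shRNA, was at a scaled FPKM of 3.50, 4.63 and 1.14 in ROCK2 KD libraries 1, 2 and 3 and of 5.50, 6.21 and 5.30 in the Scr libraries of the same numbers. The groups did not overlap, as was the case for 1.68% of the 10526 genes tested. The log2 fold change was -0.81 (standard error, SE, 0.23, adjusted p = 0.801 in the limma fit across all genes), and the difference was -0.53, -0.36 and -1.56 in pairs 1, 2 and 3. Without replicate 3 the log2 fold change was -0.44.

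All 10 genes of the complex passed the filter on low values, an FPKM of 1 or more in 3 or more libraries. In Scr libraries their order, by mean scaled FPKM, was ELL3, MLLT1, CDK9, ELL, CCNT1, ELL2, AFF1, AFF4, MLLT3 and CCNT2. ELL3 stood at 81.3 ± 53.7 (SD, n = 3), and its lowest Scr value, 25.3, was above the highest Scr value of the other 9, which was 22 for CDK9. MLLT1 followed at 18.6 ± 2.16 (SD, n = 3), CDK9 at 17.4 ± 4.90 and ELL at 13.8 ± 4.63. CCNT1 was at 11.6 ± 0.376, ELL2 at 7.57 ± 3.67, AFF1 at 6.73 ± 1.59 and AFF4 at 5.56 ± 0.889. The lowest were MLLT3 at 3.38 ± 0.429 and CCNT2 at 2.57 ± 0.417. The ranges of neighbours in this order overlapped except between ELL3 and MLLT1, between CCNT1 and ELL2 and between AFF4 and MLLT3. Among all genes tested, ELL3 lay at the 93.3th percentile of the mean in Scr libraries, ELL at the 61.9th, ELL2 at the 43.2th and CCNT2 at the 14.9th. FPKM are per length, so that levels can be set side by side between genes, with the caution on ELL3 given with its values.

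**Figure D1:**
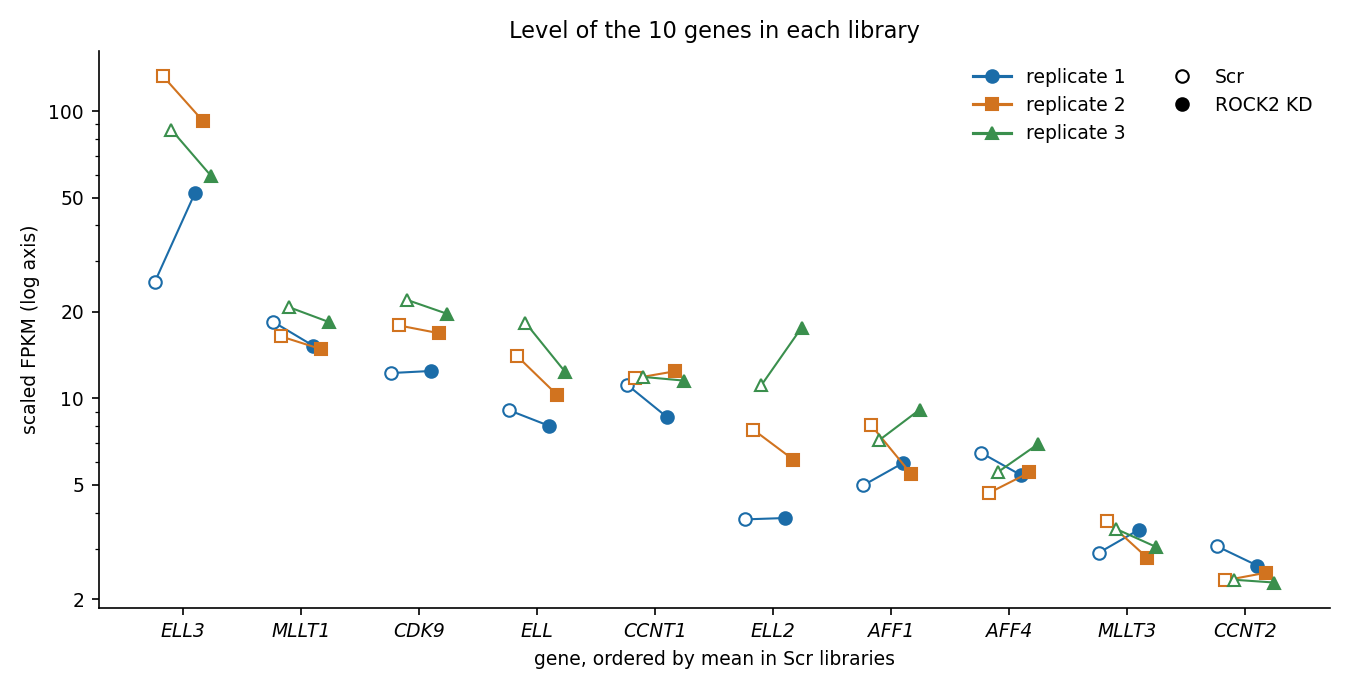
Scaled FPKM (log axis) of the 10 genes in each of the 6 libraries, ordered by the mean in Scr libraries. Open symbols are Scr, filled symbols ROCK2 KD, and lines join libraries of the same replicate number. ELL3 spans 25.3 to 132 and ELL2 3.79 to 17.6, while CCNT2 and MLLT3 stay within a factor of 1.34.

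Differences, SE and p values come from limma, fitted on log2(scaled FPKM + 1) across all 10526 genes with the replicate number as a block. None of the 10 genes had an adjusted p under 0.05 (background 0%, since 0 of all genes tested passed), and their adjusted p values ran from 0.855 to 0.998. The unadjusted p was under 0.05 for 1 of the 10, ELL, and for 5.44% of all genes, 2.3% lower and 3.14% higher in ROCK2 KD. The median log2 fold change of the 10 was -0.06, against -0.0022 over all genes tested, with 7 below 0 and 3 above. It was -0.10 without replicate 1, -0.022 without replicate 2 and -0.097 without replicate 3. Lower values in all 3 pairs were found for 2 of the 10, ELL and MLLT1 (12% of all genes tested), and higher values in all 3 pairs for 0 (13.1% of all genes). For each of the 10 the range of the ROCK2 KD libraries overlapped that of the Scr libraries. Of all genes tested, only 1.68% had groups that did not overlap. The 95% interval of the log2 fold change, not adjusted for the number of genes, lay within 0.5 of 0 for 7 of the 10 genes, the exceptions being ELL, ELL2 and ELL3. A decrease of mRNA per cell and a lower share of cells that express a gene cannot be told apart in such bulk libraries.

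**Figure D2:**
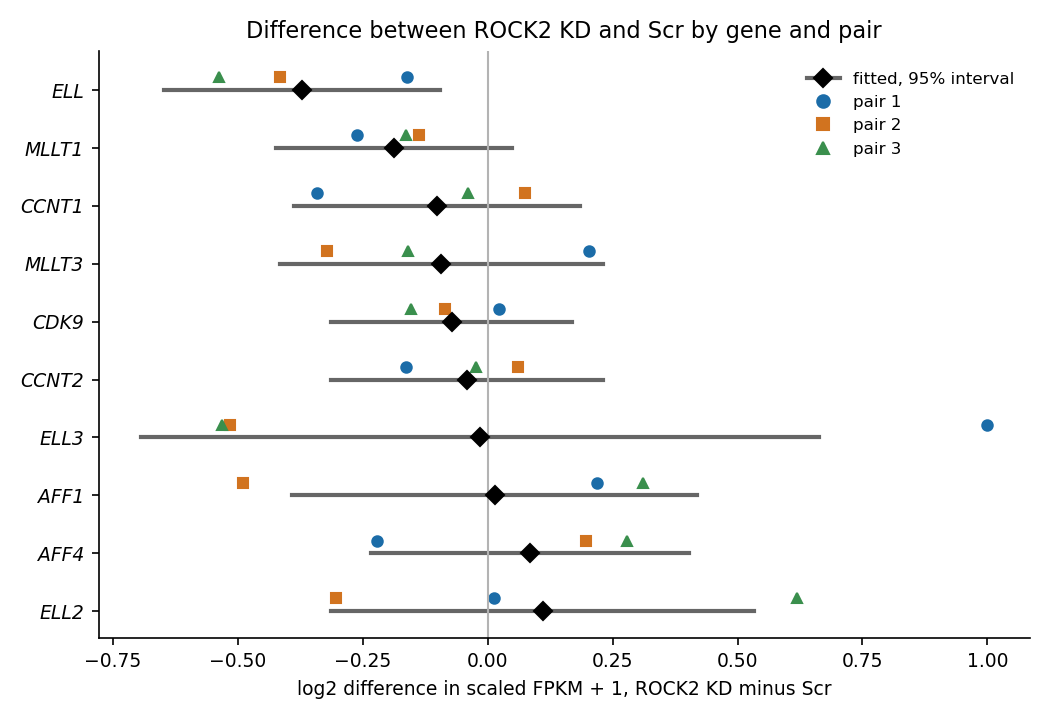
Fitted log2 difference (ROCK2 KD minus Scr, scaled FPKM + 1) of each gene with its 95% interval (black diamond and grey bar) and the differences of the same-numbered pairs (coloured symbols). ELL is lowest at -0.37 and ELL2 highest at 0.11, and the pairs of ELL3 run from -0.53 to 1.0.

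ELL, the founding member of the ELL family, lies on the minus strand of chromosome 19 (GRCh37, 18553473 to 18632926). Its scaled FPKM was 8.03, 10.3 and 12.3 in ROCK2 KD libraries 1, 2 and 3 and 9.10, 14.0 and 18.4 in the Scr libraries. ROCK2 KD was the lower library in each pair, although the groups overlapped because ELL was low in both libraries of replicate 1 and high in both of replicate 3. The log2 fold change was -0.37 (SE 0.12, 95% interval -0.65 to -0.10), with an unadjusted p of 0.0156 and an adjusted p of 0.855. By p value ELL ranked 191st of the 10526 genes. The difference in log2(scaled FPKM + 1) was -0.16, -0.41 and -0.54 in pairs 1, 2 and 3. Without the added 1, the scaled FPKM in ROCK2 KD was 0.882, 0.732 and 0.671 of that in Scr. Leaving out each pair in turn gave log2 fold changes from -0.48 to -0.29. After ComBat on the replicate number and limma without a block, which are the tools named in the study and were applied there to counts, the adjusted p of ELL was 0.0455 with a log2 fold change of -0.28. That setting called 1.25% of all genes as lower and 1.56% as higher, and ELL was the 1 member it called. The fit that follows ComBat does not count the replicate means among its estimated terms.

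ELL2, on chromosome 5, had a scaled FPKM of 3.83, 6.12 and 17.6 in ROCK2 KD libraries 1, 2 and 3 and of 3.79, 7.79 and 11.1 in the Scr libraries. The libraries of replicate 1 were level with each other, ROCK2 KD was lower in pair 2, and the highest value of all was that of ROCK2 KD in replicate 3. Differences were thus 0.01, -0.30 and 0.62 on the log2 scale, and the log2 fold change was 0.11 (SE 0.18, 95% interval -0.31 to 0.53, adjusted p = 0.989). Without replicate 3 it was -0.15. Over the 6 libraries the highest ELL2 value was 4.65 times the lowest, and 91.9% of the sum of squares of ELL2 went with the replicate number against 0.611% with ROCK2 KD or Scr. The ROCK2 KD library of replicate 3, in which ELL2 was highest, was also the library with the lowest ROCK2, and the part of this in the ELL2 value was not tested.

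Genes known from plasma cells were set beside ELL2. IRF4, a transcription factor needed for plasma cell differentiation, had a scaled FPKM of 29.2, 84.0 and 109.9 in ROCK2 KD libraries 1, 2 and 3 and of 25.5, 81.2 and 87.4 in the Scr libraries, with a log2 fold change of 0.19 (SE 0.10, adjusted p = 0.956). PRDM1, the repressor that drives plasma cell differentiation, was at 1.21, 4.73 and 7.82 in ROCK2 KD and at 1.27, 5.38 and 4.38 in Scr. XBP1, the transcription factor of the secretory programme, was at 72.2, 83.9 and 156 in ROCK2 KD and at 81.7, 126 and 129 in Scr. As with ELL2, PRDM1 and XBP1 were lower in ROCK2 KD in pair 2 (-0.16 and -0.59) and higher in pair 3 (0.71 and 0.27). This pattern, picked out after the values were seen, was found in 4 of the 8 plasma cell genes tested (PRDM1, XBP1, SDC1 and IGJ) and in 22.6% of all genes tested. SDC1 was low, with a scaled FPKM of 0.231 in ROCK2 KD and 0.584 in Scr in replicate 2, and of 1.26 and 0.600 in replicate 3. Over the 6 libraries Pearson's r with ELL2 was 0.944 for XBP1, 0.941 for IGJ, 0.889 for PRDM1 and 0.874 for IRF4, at the 96.6th, 96.4th, 89.9th and 87.8th percentiles of all genes. It was 0.713 to 0.727 for POU2AF1, TNFRSF17 and CSTF2, at the 65.2th to 67.0th percentiles, and -0.249 for SDC1, at the 25.1th. The libraries share the replicate structure, so these r values are descriptions. Of the 8 genes 0 had an unadjusted p under 0.05, with a median log2 fold change of 0.02.

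ELL3, the third ELL protein and known from germ cells and B cells, lies on the minus strand of chromosome 15 (GRCh37, 44064803 to 44069513). Its scaled FPKM was 51.7, 92.4 and 59.4 in ROCK2 KD libraries 1, 2 and 3 and 25.3, 132 and 86.3 in the Scr libraries. The widest spread of the 10 genes was that of ELL3, whose highest value was 5.22 times its lowest, at the 94.1th percentile of all genes tested. ROCK2 KD was 2.04 times the Scr value in pair 1, and 0.697 and 0.688 of it in pairs 2 and 3. The log2 fold change was accordingly -0.02 with a SE of 0.29 (95% interval -0.69 to 0.66, adjusted p = 0.998). Without replicate 1 it was -0.52, and without replicate 2 or 3 it was 0.23 and 0.24. Of the exonic bases of ELL3, 24.9% are shared with PDIA3 and 8% with SERF2, both on the opposite strand. The sources used here do not state that the counting used strand, so reads from these stretches cannot be told apart. PDIA3 was at a scaled FPKM of 81.7 to 123 over the libraries, its highest value 1.5 times its lowest, and had a log2 fold change of 0.10. SERF2 was at 85.4 to 188, with a log2 fold change of 0.11. In pair 1, where ELL3 differed by 1.0, PDIA3 differed by 0.18 and SERF2 by 0.31.

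The scaffolds AFF1 and AFF4 had log2 fold changes of 0.01 (SE 0.17, 95% interval -0.39 to 0.42, adjusted p = 0.996) and 0.08 (SE 0.13, 95% interval -0.23 to 0.40, adjusted p = 0.988). AFF1 was at a scaled FPKM of 5.96, 5.45 and 9.13 in ROCK2 KD libraries 1, 2 and 3 and of 4.98, 8.06 and 7.16 in the Scr libraries. It was higher in ROCK2 KD in pairs 1 and 3 (0.22 and 0.31) and lower in pair 2 (-0.49). AFF4 was at 5.40, 5.52 and 6.92 in ROCK2 KD and at 6.47, 4.69 and 5.53 in Scr, so that ROCK2 KD was lower in pair 1 (-0.22) and higher in pairs 2 and 3 (0.20 and 0.28). For neither scaffold did the pairs share a direction. Without replicate 1 the value of AFF1 was -0.09, and without replicate 3 that of AFF1 was -0.14 and that of AFF4 -0.013.

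CDK9, the kinase of P-TEFb, was at a scaled FPKM of 12.5, 16.9 and 19.7 in ROCK2 KD libraries 1, 2 and 3 and of 12.3, 17.9 and 22 in the Scr libraries. Same-numbered libraries were close to each other, with differences of 0.02, -0.09 and -0.15. The replicate number took 97.1% of the sum of squares of CDK9, the highest share of the 10 genes. Its log2 fold change was -0.07 (SE 0.10, 95% interval -0.31 to 0.17, adjusted p = 0.979), and it was -0.12 without replicate 1 and -0.031 without replicate 3. Cyclin T1 (CCNT1) was at 8.61, 12.4 and 11.5 in ROCK2 KD and at 11.2, 11.8 and 11.9 in Scr, with a log2 fold change of -0.10 (SE 0.12, adjusted p = 0.979). Only the ROCK2 KD library of replicate 1 stood below the others, and without that pair the value was 0.018. Cyclin T2 (CCNT2) was at 2.62, 2.47 and 2.29 in ROCK2 KD and at 3.05, 2.33 and 2.34 in Scr, with a log2 fold change of -0.04 (SE 0.11, adjusted p = 0.995), and 0.019 without replicate 1. CCNT2 shares 1.65% of its exonic bases with CCNT2-AS1 on the opposite strand, which was at or below a scaled FPKM of 0.378.

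Of the histone readers, MLLT1 was at a scaled FPKM of 15.3, 14.8 and 18.4 in ROCK2 KD libraries 1, 2 and 3 and of 18.5, 16.4 and 20.8 in the Scr libraries. ROCK2 KD was the lower library in each pair, by -0.26, -0.14 and -0.16, and the groups overlapped. Its log2 fold change was -0.19 (SE 0.10, 95% interval -0.42 to 0.05), with an unadjusted p of 0.102 and an adjusted p of 0.956. ROCK2 KD or Scr took 34.2% of the sum of squares of MLLT1, the highest share of the 10 genes, before ELL at 25.5%. MLLT3 was at 3.50, 2.78 and 3.04 in ROCK2 KD and at 2.90, 3.73 and 3.52 in Scr, higher in ROCK2 KD in pair 1 and lower in pairs 2 and 3. Its log2 fold change was -0.09 (SE 0.14, adjusted p = 0.982), and 0.022 without replicate 2. The replicate number took 0.965% of its sum of squares, and 84.0% was in neither term.

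**Figure D3:**
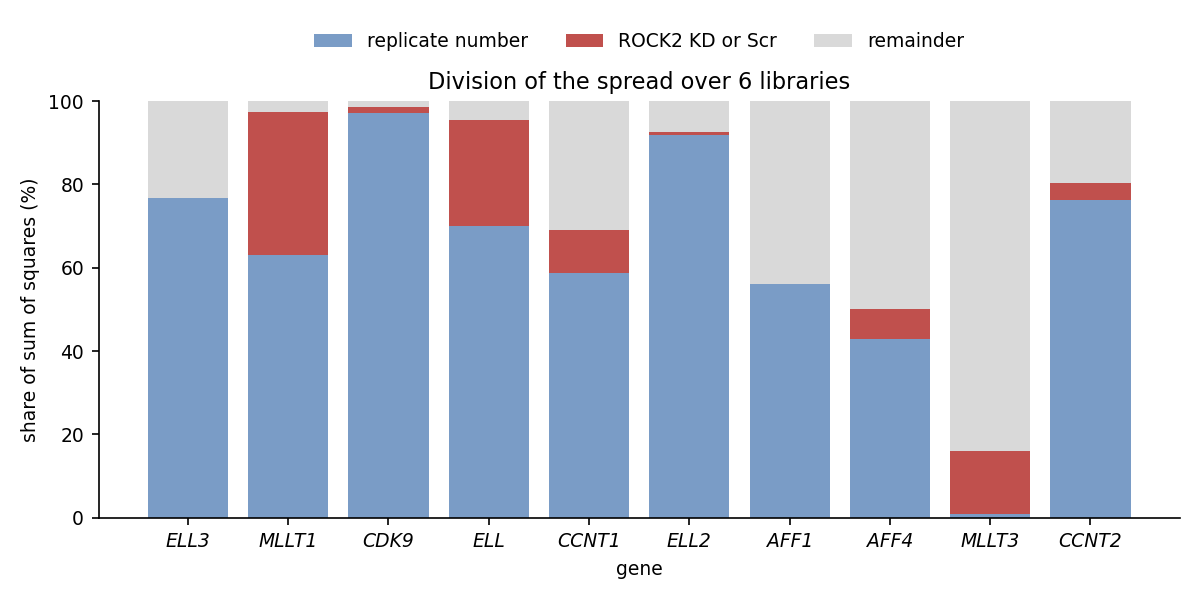
Share of the sum of squares of log2(scaled FPKM + 1) over the 6 libraries that went with the replicate number, with ROCK2 KD or Scr, and with neither, as stacked bars for each gene. The replicate number holds the largest share in 8 of the 10 genes, from 56.0% in AFF1 to 97.1% in CDK9.

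Across the 10 genes the replicate number took a median of 66.5% of the sum of squares and ROCK2 KD or Scr 5.68%. The medians over all genes tested were 85.9% and 2.62%. In 7 of the 10 genes the mean of both libraries was lowest in replicate 1. The exceptions were AFF4 and MLLT1, which were lowest in replicate 2, and CCNT2, which was highest in replicate 1.

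The complex is built with alternative paralogs, so the balance between paralogs was compared as the log2 ratio of FPKM within each library, which no scaling between libraries can move. ELL stood at 2.09, 1.68 and 0.699 times ELL2 in ROCK2 KD libraries 1, 2 and 3 and at 2.4, 1.80 and 1.65 times ELL2 in the Scr libraries. ELL2 exceeded ELL only in the ROCK2 KD library of replicate 3. The log2 ratio was lower in ROCK2 KD in all 3 pairs, by -0.20, -0.10 and -1.24, with a mean difference of -0.51 (exact permutation p = 0.50, two-sided). Without replicate 3 the difference was -0.15. The ratio of CCNT1 to CCNT2 was 3.29 in ROCK2 KD and 3.66 in Scr in replicate 1, while it was 5.03 and 5.05 in replicate 2 and 5.05 and 5.08 in replicate 3. Its mean log2 difference was -0.06 (SD of the pair differences 0.0844, n = 3, exact permutation p = 0.50, two-sided), and -0.0078 without replicate 1. AFF1 stood at 1.10, 0.986 and 1.32 times AFF4 in ROCK2 KD and at 0.769, 1.72 and 1.30 times AFF4 in Scr, a mean log2 difference of -0.08 (exact permutation p = 0.90, two-sided) that was 0.27 without replicate 2. MLLT1 stood at 4.37, 5.33 and 6.05 times MLLT3 in ROCK2 KD and at 6.37, 4.41 and 5.90 times MLLT3 in Scr, a mean log2 difference of -0.08 (exact permutation p = 0.70, two-sided) that was 0.16 without replicate 1. With 4 ratios compared, each adjusted p was 0.90 by the exact permutation test, and with 3 libraries against 3 it cannot go below 0.10 before adjustment.

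**Figure D4:**
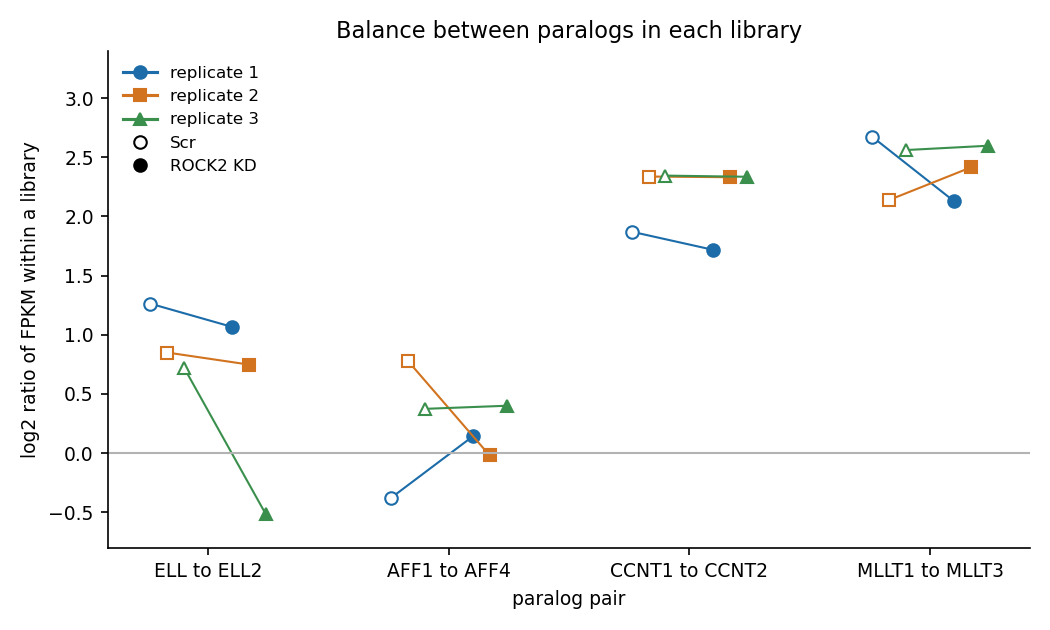
Log2 ratio of FPKM between paralogs within each library. Open symbols are Scr, filled symbols ROCK2 KD, and lines join the same replicate number. The ratio of ELL to ELL2 lies below 0 in 1 library, ROCK2 KD of replicate 3 at -0.52, and the ratio of CCNT1 to CCNT2 is between 2.33 and 2.35 in the 4 libraries of replicates 2 and 3.

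The other genes of elongation control were taken from lists of 62 genes, of which 61 were found in the files, 5 of them by an older symbol, and 60 passed the filter. At an adjusted p under 0.05 there were 0 of the 60, as for all genes tested. At an unadjusted p under 0.05 there was 1 of the 60, against 5.44% of all genes tested. This was NELFA, a subunit of the NELF complex that holds paused polymerase. NELFA was at a scaled FPKM of 15.2, 11.2 and 17.3 in ROCK2 KD libraries 1, 2 and 3 and of 18.6, 14.6 and 20.2 in the Scr libraries. ROCK2 KD was lower in each pair, with a log2 fold change of -0.28 (SE 0.10, adjusted p = 0.879). The other 5 genes of NELF and DSIF had log2 fold changes from -0.09 to 0.05.

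Among the regulators of P-TEFb, 5 of 5 tested genes had log2 fold changes below 0, and 0 of 5 passed at either threshold. The value was -0.21 for MEPCE, which caps the RNA that holds P-TEFb in reserve, and -0.0022 for HEXIM1, which holds P-TEFb inactive. The partners of ELL (EAF1, EAF2, ICE1, ICE2, ZC3H8 and USPL1) had a median of -0.11, with 5 of 6 below 0. AFF2, of the AF4 family, had -0.12, and AFF3 was below the filter. For the PAF1 complex, which travels with elongating polymerase, the median of 6 genes was 0.05, and for 10 other elongation factors it was 0.02. The other transcription cyclins and kinases ran from -0.14 for CCNK to 0.25 for CCNH, the cyclin of CDK7, with a median of 0.02 over 8 genes. The DOT1L complex with KMT2A, which shares MLLT1 and MLLT3 with the super elongation complex, had a median of -0.03 over 6 genes. The 12 subunits of RNA polymerase II ran from -0.08 to 0.14 with a median of -0.03. Over the 60 genes the median was -0.04, with 36 below 0 and 24 above, and of all genes tested 5327 of 10526 were below 0. In all 3 pairs 6 of the 60 were higher and 8 lower, against 13.1% and 12% of all genes. No list had a gene past an adjusted p of 0.05.

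**Figure D5:**
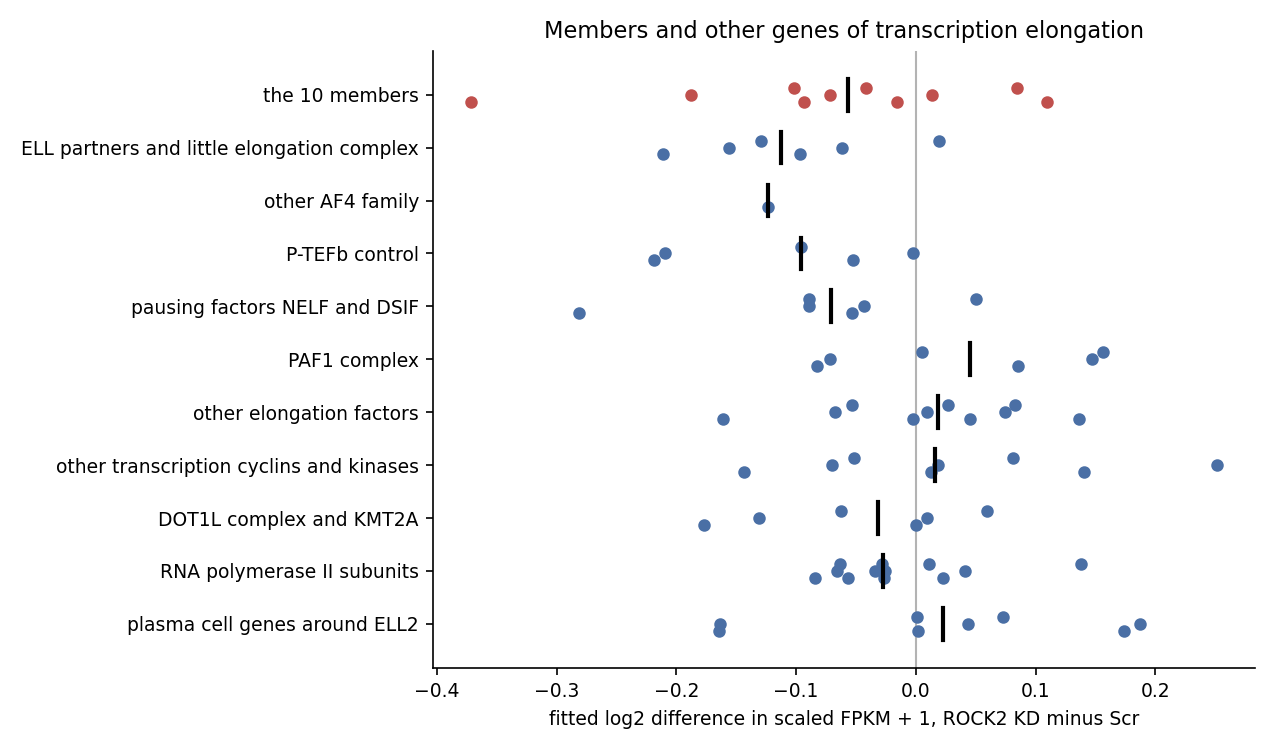
Fitted log2 difference (ROCK2 KD minus Scr, scaled FPKM + 1) of the 10 genes (red) and of the genes of each list of elongation control and plasma cell genes (blue), with a bar at each median. All points lie between -0.37, which is ELL, and 0.25, which is CCNH, and the medians lie between -0.12 and 0.05.

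The genes most like ELL over the 6 libraries, by Pearson's r of log2(scaled FPKM + 1) among 10525 genes, were ZNF574 (0.991), AARS (0.990) and ABT1 (0.989). Among the other members CDK9 was the closest to ELL, with r = 0.910, at the 98.4th percentile. For ELL2 they were FBXO22, ZFP64 and C19orf10 (0.996 each), and 283 genes exceeded 0.95. Among the members CDK9 (0.888) and AFF1 (0.868) were closest to ELL2, while r between ELL and ELL2 was 0.721. CCNT2 ran against both, with r = -0.68 for ELL and -0.80 for ELL2. These values rest on 6 libraries in 3 pairs, whose shared replicate number enters every r.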

How the data were processed

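RNA from 3 ROCK2 KD and 3 Scr libraries of U2932 cells was analysed. Per the labels and the study's methods, the authors prepared Nextera libraries, used STAR for alignment against hg19 and Cufflinks for FPKM. The deposited FPKM of 20667 symbols per library were the values used. FPKM were scaled by an unweighted trimmed mean of log ratios (trimming 0.3 of ratios and 0.05 of levels), and 10526 genes with an FPKM of 1 or more in 3 or more libraries were fitted as log2(scaled FPKM + 1), a scale that understates the change of low genes, with limma 3.58.1 in R 4.3.3 (replicate block, empirical Bayes with trend, Benjamini-Hochberg over all genes). Fits were tested on simulated data. Groups and numbers came from the labels. The block follows the study's own batch correction by replicate, and within each pair the deviations from the group means were correlated (r across genes 0.855, 0.785 and 0.742).

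Paralog ratios were tested by exact permutation of the 6 libraries. Named were all 10 members, ROCK2, IRF4, PRDM1 and XBP1, up to 3 genes per list with an unadjusted p under 0.05, and the 3 genes most like ELL and ELL2. Other list genes serve as examples chosen after their values were seen. The members and lists were chosen with earlier results of these data known. Alternatives covered the block, ComBat (written out in R without the condition), pseudocount, filter, scaling, trend and each replicate pair. Gene positions are from GENCODE 44 lifted to GRCh37, promoters from RefSeq. Tables and plots were made in Python 3.11.15 with pandas 2.3.3, numpy 2.4.6 and matplotlib 3.10.9. Values of some marker and list genes are not reported here.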

Additional observations from a re-analysis of the deposited data

How the results depend on the processing

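Of 120 values of the member fold changes over 12 alternatives, 109 kept their direction and their side of the threshold, 10 changed sign and 1, ELL after ComBat, passed the threshold. Without the replicate block 26 genes had an unadjusted p under 0.05, 0 of them members, and 0 an adjusted p under 0.05. After ComBat followed by limma without a block, 2126 genes had an unadjusted and 296 an adjusted p under 0.05, with 2 members at the unadjusted threshold. Without a filter on low values 2 members had an unadjusted p under 0.05 in limma, as did 791 of all 18785 genes then tested. Leaving out 1 pair in turn gave 0 to 4 genes at the adjusted and 398 to 876 at the unadjusted threshold, and 0 to 2 members at the latter, from limma on the 4 remaining libraries. The cause of these changes was not tested. In the same fits log2 fold changes ran from -0.14 to 0.27 for AFF1, -0.013 to 0.24 for AFF4, -0.19 to 0.018 for CCNT1, -0.093 to 0.019 for CCNT2, -0.24 to 0.022 for MLLT3, -0.15 to 0.32 for ELL2 and -0.52 to 0.24 for ELL3, and the log2 ratios from -0.39 to 0.27 for AFF1 to AFF4 and -0.25 to 0.16 for MLLT1 to MLLT3. Quantile normalization gave ELL3 a value of 0.012. With the pairing kept, exact sign changes gave p = 0.25 for the ratios of ELL to ELL2 and of CCNT1 to CCNT2, the smallest that 3 pairs allow, and 1 for the other 2 ratios. ROCK2 stayed lower in every alternative, from -1.06 to -0.44. FPKM carry no read numbers, so no counting error is given.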

Other observations

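For ELL3, which was looked at after its spread had been seen, the genes most alike over the 6 libraries were PIF1, a DNA helicase (Pearson's r = 0.998), SNHG9 and CCBL1 (0.991 each), and 89 genes exceeded 0.95. CCNT2 and AFF4 ran against ELL3, with r of -0.84 and -0.71.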
